A study of Mus musculus with 11 samples.

Results

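The histone genes were described here, taken as every symbol of the deposited expression table that begins with H1f, H2ac, H2bc, H3c or H4c followed by a number. By this rule 68 of the 25562 symbols were members, with 8 linker histone H1 genes, 17 H2A genes, 18 H2B genes, 12 H3 genes and 13 H4 genes. Of these, 52 lie on chromosome 13 and 9 on chromosome 3, by symbol in the RefSeq gene table. The name replication-dependent does not cover all of them. H1f0 and H1f10 are linker histones made outside S phase as well, H1f8 is the oocyte linker histone, H2bc1 is a testis histone and H2ac5-ps is listed as a pseudogene. H1f8 and H2bc1 were each above 0 TPM in 1 library only, at 0.12 TPM in AOAH library 1 for H1f8 and 0.60 TPM in PC library 1 for H2bc1.

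A nucleosome wraps DNA around a core of histones H2A, H2B, H3 and H4, and H1 binds the DNA between cores, so a cell that copies its genome must make new histones at the same time. The clustered genes are read mainly in S phase, when cyclin E and its kinase CDK2 act on the factor NPAT at the gene clusters. Their mRNA normally ends in a stem-loop that is held by the stem-loop binding protein SLBP in place of a poly(A) tail, and it is destroyed when DNA synthesis stops. T cells rest outside the cell cycle until the antigen receptor is engaged, and their division after activation calls on these genes.

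The cells were CD8+ T cells from the spleens of C57BL/6 mice, an inbred strain, enriched with a commercial isolation kit. In 4 AOAH libraries the cells had received 10 µg/mL of recombinant human acyloxyacyl hydrolase with a His tag, an enzyme that removes fatty acyl chains from lipids, together with the ethanol control. In 3 PC libraries they had received 60 µM of PC16:0-20:4, a phosphatidylcholine, with a protein buffer of 10% glycerol in PBS. In 4 vehicle libraries they had received ethanol and that same buffer. No glycerol content is recorded for the AOAH libraries, so AOAH and vehicle may differ in buffer as well as in enzyme. All 3 groups were pretreated for 22 h and stimulated for 24 h through CD3 (1 µg/mL antibody) and CD28 (0.5 µg/mL antibody). The treatment text puts AOAH in the pretreatment step and the sample descriptions put it in the activation step, and this conflict cannot be settled from the labels. The sample descriptions also speak of beads carrying the antibodies, where the treatment text has the CD3 antibody bound to the plate, and interleukin-2 is given as present or absent without saying in which libraries. Nothing ties the libraries to separate mice or cultures, so each p-value reflects how far these libraries vary among themselves, and that variation may be only technical.

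The libraries were made from RNA selected on oligo(dT) beads. The values therefore describe histone transcripts that were retained by that selection, and a change in the amount of histone mRNA cannot be told apart from a change in the part of it that carries a poly(A) tail. In bulk RNA, fewer cells in S phase and less histone RNA per cell cannot be told apart either.

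The 3′ ends of the members are shown first, because they bear on how a transcript enters a poly(A)-selected library. A search of the GENCODE M21 transcripts for the histone stem-loop found it in 42 of the 63 members that could be matched by accession, against 74 of 55450 genes in all, or 0.133%. The pattern was GG, 3 pyrimidines, TT, a pyrimidine, T, any base but G, A, 3 purines and CC. The most frequent stem-loop, in 24 members, is that of H2ac24, H2ac19 and H2bc11, and the H3 and H4 genes shown differ from it in the stem or the loop. The stem-loop is in capitals, with up to 5 bases on each side.
H2ac24 stem-loop: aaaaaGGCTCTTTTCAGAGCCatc
H2ac19 stem-loop: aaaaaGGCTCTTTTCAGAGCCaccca
H2bc11 stem-loop: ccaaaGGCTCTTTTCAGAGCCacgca
H3c3 stem-loop: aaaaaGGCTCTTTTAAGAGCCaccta
H4c2 stem-loop: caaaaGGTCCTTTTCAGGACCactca
H4c9 stem-loop: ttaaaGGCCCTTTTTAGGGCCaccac
In 23 members the annotated transcript ended within 100 bases after the stem-loop, as in H2ac24, where 3 bases follow it. In 19 members the transcript ran on for more than 100 bases, as in H4c9 with 330 bases after the stem-loop and H1f2 with 840. In the other 21 matched members no stem-loop lay in the annotated transcript, which is the case for coding-only models such as H2ac13 and H2ac12 and for the long transcripts of H2bc21 and H2bc4. H2ac25, H2bc24, H2bc27, H4c16 and H2ac5-ps were not matched.

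Promoters of 58 members were searched on both strands of the 250 bases before and 50 after the start, from RefSeq on GRCm38.p6. The 3 motifs were TATAAA (the letters of the TATA box), CCAAT (bound by the factor NF-Y) and the octamer, spelled ATTTGCAT. Matches were taken at any position, so a match is not thereby a working site, as for the TATAAA far from the start of H4c9 below. No overlap between matches was removed. TATAAA was found in 55.2% of them and in 14.2% of all 27025 promoters. CCAAT was found in 82.8% of them and in 37.9% of all. The octamer was found in 19.0% of them and in 1.8% of all. CCAAT was found in 15 of 15 H2A, 14 of 14 H2B and 10 of 10 H3 promoters, but in 3 of 11 H4 promoters, and the octamer was found in 5 H2A and 6 H2B promoters and in no H1, H3 or H4 promoter. The 150 bases before the start are shown for 4 members whose levels are followed below, among them H2ac24 and H2ac19, which moved in opposite directions with PC. Motif matches on either strand are in capitals.
H2ac24 promoter, GRCm38.p6 chr13:21833476-21833625, minus strand: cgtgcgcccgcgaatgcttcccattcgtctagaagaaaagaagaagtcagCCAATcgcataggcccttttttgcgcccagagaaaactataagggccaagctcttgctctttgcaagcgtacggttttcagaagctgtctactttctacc
H2ac19 promoter, GRCm38.p6 chr3:96240375-96240524, minus strand: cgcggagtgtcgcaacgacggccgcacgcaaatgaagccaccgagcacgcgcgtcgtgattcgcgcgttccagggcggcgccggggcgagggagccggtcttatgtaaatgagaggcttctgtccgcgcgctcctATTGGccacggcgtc
H3c3 promoter, GRCm38.p6 chr13:23745522-23745671, minus strand: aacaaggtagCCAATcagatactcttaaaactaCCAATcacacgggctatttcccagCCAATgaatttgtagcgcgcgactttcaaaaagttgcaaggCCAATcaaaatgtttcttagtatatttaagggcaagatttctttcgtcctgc
H4c9 promoter, GRCm38.p6 chr13:22041363-22041512, minus strand: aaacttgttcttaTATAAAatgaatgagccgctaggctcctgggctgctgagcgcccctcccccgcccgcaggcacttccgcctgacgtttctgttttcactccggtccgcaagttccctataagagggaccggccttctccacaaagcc

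H2ac24, an H2A gene of the chromosome 13 cluster, gave most of the histone signal. Levels are in TPM, a length-corrected share of a library's transcripts, and a group's values are listed in the order of its replicate numbers. In AOAH libraries H2ac24 was at 2640.3, 2695, 2524 and 2480.5 TPM, in PC libraries at 741, 708 and 699 TPM and in vehicle libraries at 2054, 1927, 2024 and 1946 TPM. The 3 groups did not overlap. H2ac24 held 82.3% to 83.8% of the summed histone TPM in AOAH libraries, 72.5% to 73.3% in PC libraries and 82.5% to 83.6% in vehicle libraries. It ranked 72nd to 77th among all genes of an AOAH library, 183rd to 189th in PC and 101st to 109th in vehicle. Below it came 10 members at 10 TPM or more on average over the 11 libraries, and 48 members in all averaged at least 1 TPM. In no library did 12 members reach 1 TPM, and no member was at 0 throughout.

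**Figure D1:**
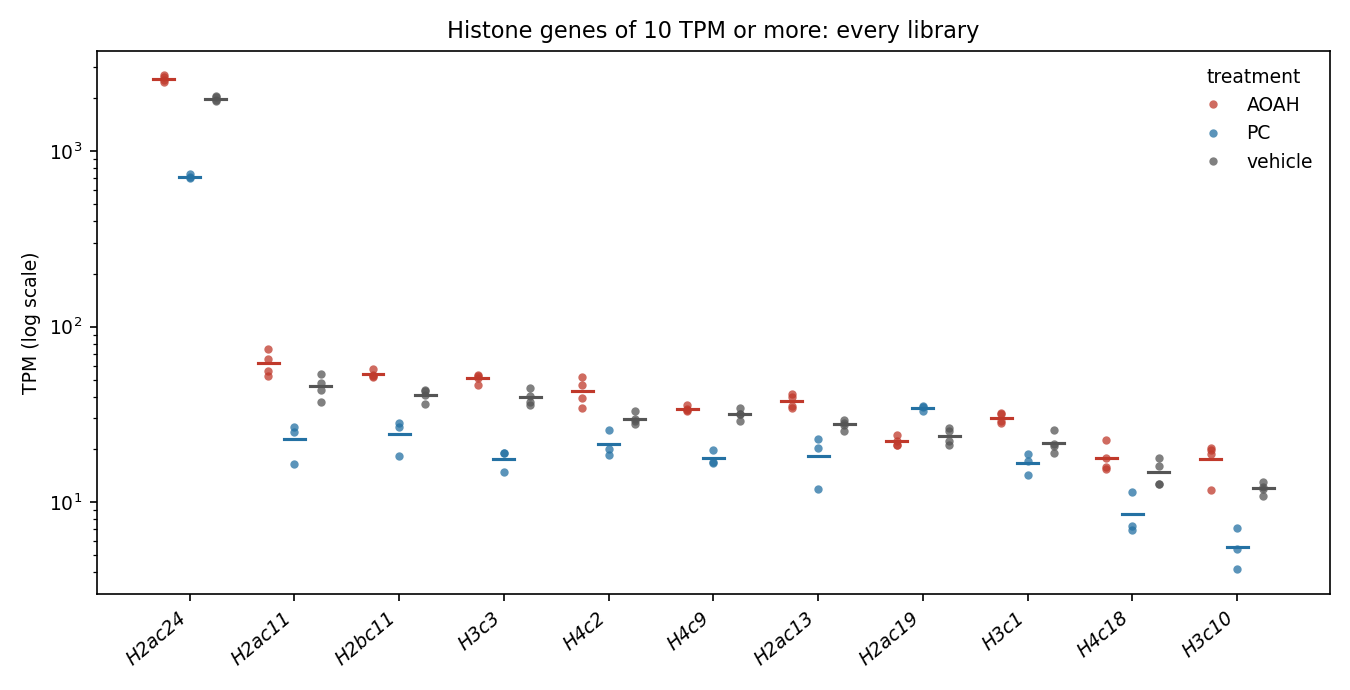
TPM on a log scale in every library for the 11 histone genes of 10 TPM or more on average. Points are libraries, with AOAH (n = 4) left, PC (n = 3) in the middle and vehicle (n = 4) right, and short lines are means. PC points lie below both other groups for 10 of the genes and above them for H2ac19. How often such gaps arise over all genes was not counted.

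The summed TPM of all 68 members was 3109 ± 103 with AOAH (SD, n = 4), 981 ± 25.9 with PC (n = 3) and 2392 ± 77.7 with vehicle (n = 4). That is 1.30 times the vehicle level with AOAH, and 0.407 times the level of vehicle 1 to 3 with PC. Without H2ac24 the sum was 524 ± 15.9 with AOAH, 265 ± 5.21 with PC and 404 ± 21.1 with vehicle, so the ratio was 1.30 with AOAH and 0.645 with PC. The H2B, H3 and H4 sums followed the same order, and their ratios to vehicle lay at 1.35, 1.34 and 1.27 with AOAH and at 0.646, 0.543 and 0.614 with PC. H1 did not: its 8 genes summed to 14.2 ± 1.25 TPM with AOAH, 12.0 ± 1.87 with PC and 11.8 ± 0.964 with vehicle, and the ranges of the groups overlapped. No test was made on sums over the members.

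**Figure D2:**
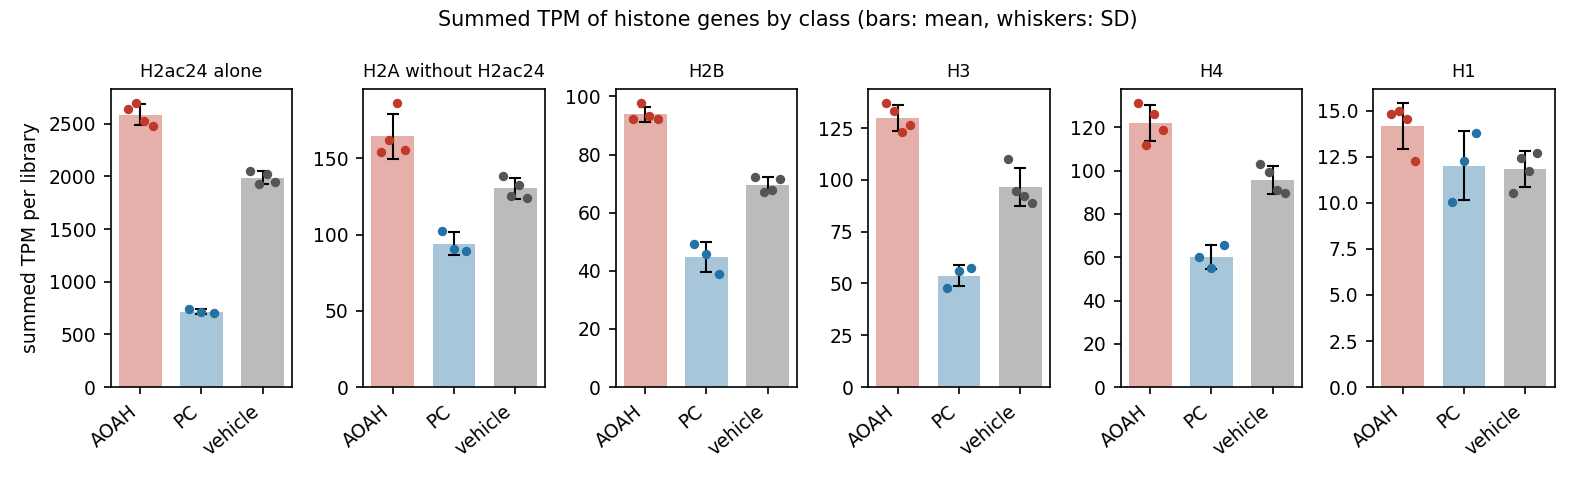
Summed TPM per library for H2ac24 alone, the other H2A genes, H2B, H3, H4 and H1, each panel on its own linear scale from 0. Points are libraries, bars are means and whiskers SD, with AOAH (n = 4), PC (n = 3) and vehicle (n = 4) from left to right. The core histone sums are highest with AOAH and lowest with PC, and the H1 sums overlap.

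The label of CD8+ T cells held, as the summed TPM of Cd3e, Cd3g, Cd8a, Cd8b1 and Trac lay between 1326 and 1357 with AOAH, between 1716 and 1771 with PC and between 1476 and 1512 with vehicle, and Cd4 was at or below 0.42 TPM. Among markers of other cells, Cd79a, Ms4a1, Csf1r, Itgam, Adgre1, Ncr1, Klrb1c and the globin genes were at or below 0.63 TPM in every library. Ighm, the mu heavy chain gene of B cells, lay between 124 and 132 TPM with AOAH, between 159 and 167 TPM with PC and between 143 and 148 TPM with vehicle, and Cd79b, of the B cell receptor, at or below 9.20 TPM throughout. The sum of the 5 myeloid genes lay between 4.26 and 4.84 TPM with AOAH, between 5.86 and 7.16 TPM with PC and between 4.77 and 8.24 TPM with vehicle. The nuclear RNA Malat1 stood at 96.6 to 136 TPM with AOAH, 234 to 311 with PC and 190 to 194 with vehicle, the opposite order to the core histones. The part of these differences in the histone results was not tested.

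AOAH was set against vehicle to ask what differs in activated CD8+ T cells with the added enzyme, whose buffer is not recorded. Of the core histone genes, 13 were called higher with AOAH, H2ac24 among them, and most of the others did not pass the test. H1f1 was the one linker gene called. On log2(TPM + 1), limma tested 46 members with a mean of at least 1 TPM and called 14 higher and 2 lower at an adjusted p under 0.05. That is set against 13.1% of all 11561 genes called higher and 12.1% called lower. The median log2 difference of the tested members was 0.31, against 0.01 over all genes, and 41 of the 46 lay above 0. By class, 4 of 14 H2A, 4 of 9 H2B, 3 of 9 H3, 2 of 9 H4 and 1 of 5 H1 genes were called higher, and the 2 called lower were H2ac25 and H2bc27. Of the 46, 4 had a mean under 1 TPM in 1 of the groups and passed the filter only through the other group. Among these were H1f1 and H2bc18, called higher, and H2bc27, called lower. Over the 42 members at 1 TPM or more in both groups, 12 were called higher and 1 lower. The number called higher was 9 when AOAH library 1 was left out and 9 when AOAH library 2 was.

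PC was set against vehicle 1 to 3, the libraries whose labels list this comparison, to ask what added phosphatidylcholine changes. Of 42 members tested, limma called 13 lower, all of them core histone genes, and 3 higher. H2ac24 fell by the most among the members above 10 TPM, and most members did not pass the test. Over all 11630 genes, 11.2% were called lower and 8.26% higher. The median log2 difference was -0.55 over the members and -0.01 over all genes, and 33 of the 42 lay below 0. All 9 H3 and all 9 H4 genes tested lay below 0, with 4 and 2 of them called lower, and 4 of 12 H2A and 3 of 9 H2B genes were called lower. Only 3 members passed the filter through 1 group alone, and 1 of them, H2ac12, was called lower. H2ac19, H2ac25 and H2bc4 were called higher, and 1 of the 3 remained when PC library 2, PC library 3 or vehicle library 1 was left out.

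AOAH was also set against PC directly, where no control is shared. Limma called 28 of 46 tested members higher with AOAH and 5 lower. Over all 11596 genes, 24.3% were called higher and 21.5% lower. The median log2 difference was 0.94 over the members and 0.00 over all genes. By class, 8 of 12 H2A, 6 of 12 H2B, 8 of 9 H3, 5 of 9 H4 and 1 of 4 H1 genes were called higher, and the 5 called lower were H2ac19, H2ac25, H2bc4, H2bc21 and H2bc27. Of the tested members, 10 passed the filter through 1 group alone. These included H2bc4, H2bc21 and H2bc27, which reached 1 TPM in PC only, and 5 called higher that reached it in AOAH only (H1f1, H2ac12, H2ac22, H2bc15 and H3c2). Over the 36 members at 1 TPM or more in both groups, 23 were called higher and 2 lower. Of these calls, H2ac4 was lost without PC library 2 or 3 (adjusted p = 0.0647 and 0.0568) and H4c12 without AOAH library 4 or PC library 3 (adjusted p = 0.0570 and 0.0568). H2bc15 was lost without AOAH library 1, AOAH library 3 or any PC library (adjusted p = 0.0563 to 0.118), and H3c11 without any 1 library other than PC library 3 (adjusted p = 0.0530 to 0.105).

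**Figure D3:**
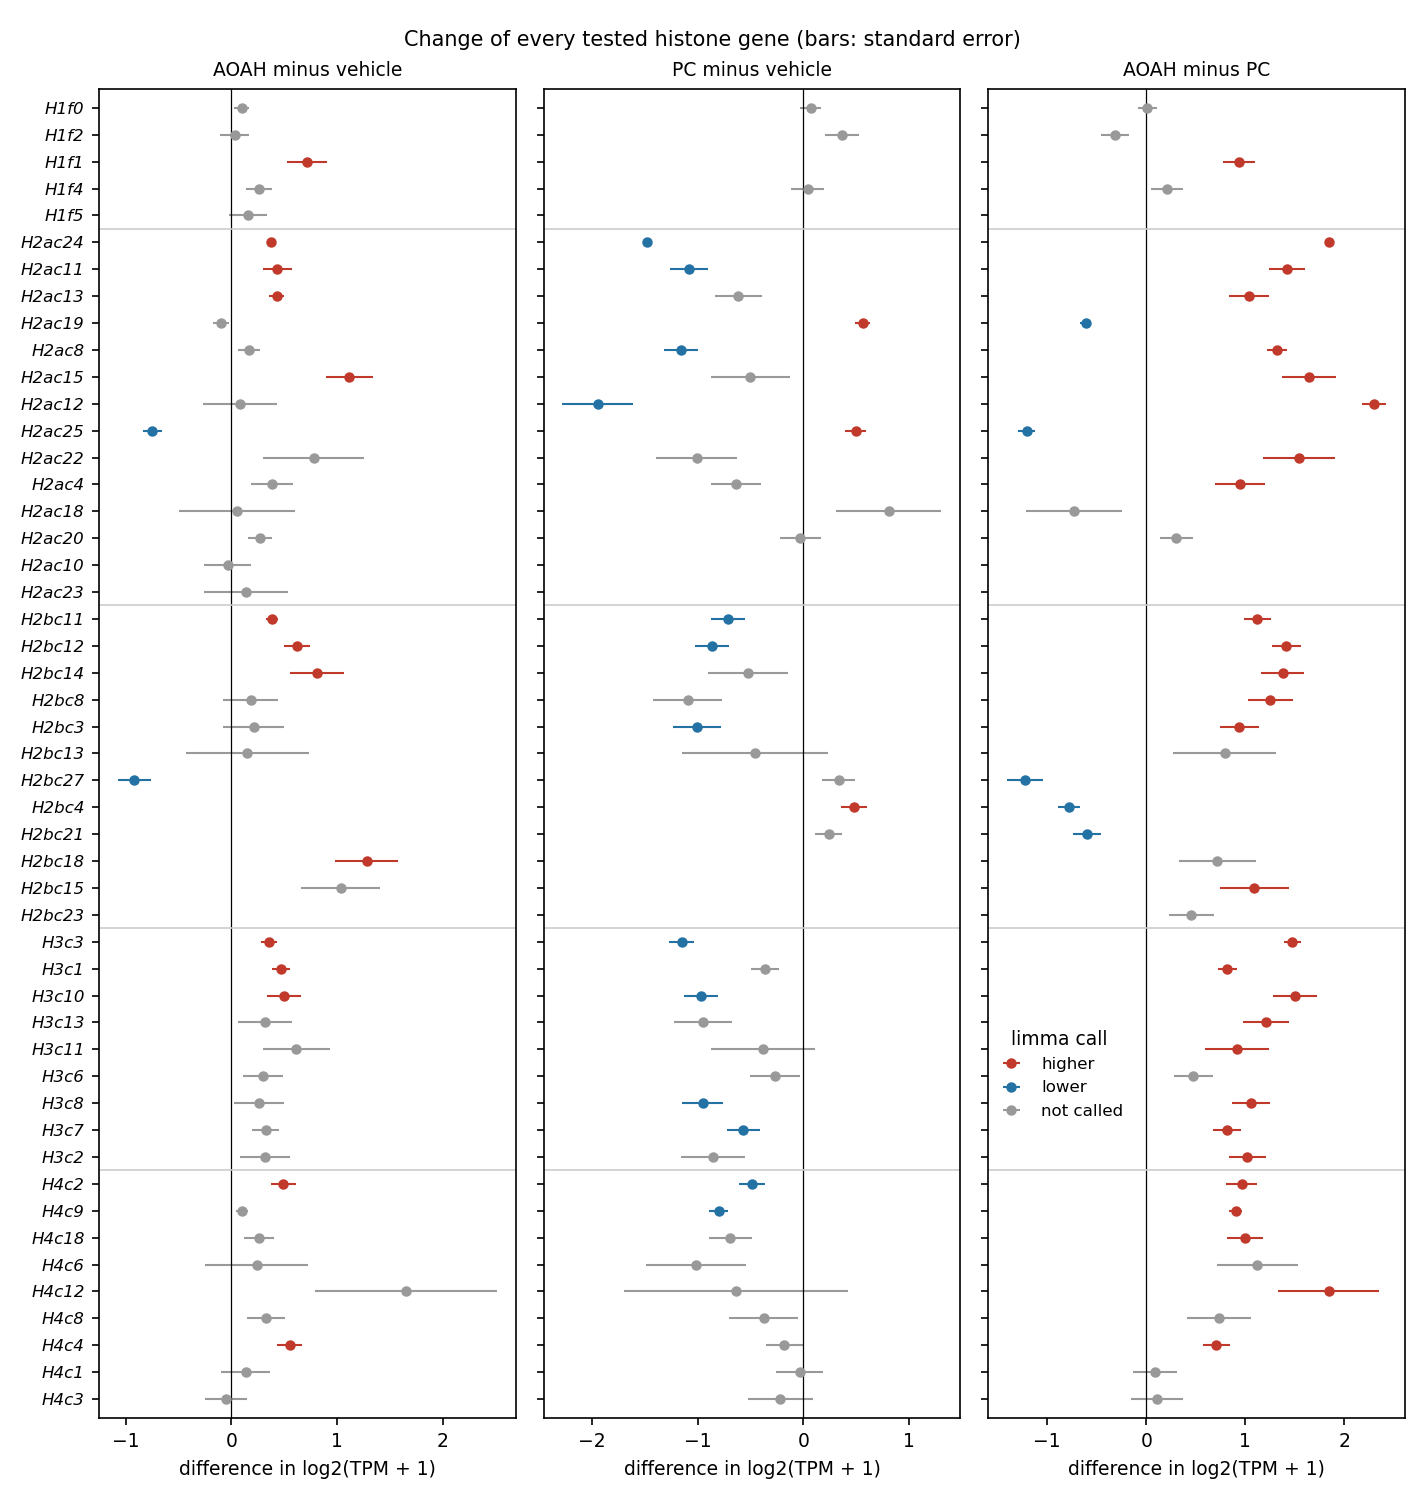
Difference in log2(TPM + 1) with its standard error for the 49 histone genes tested in at least 1 comparison, grouped by class (H1, H2A, H2B, H3 and H4 from the top) and ordered by mean TPM. Red marks genes that limma called higher, blue lower and grey neither, and H2ac12 was listed at 0 in all PC libraries. Most core histone genes lie right of 0 for AOAH minus vehicle and left of 0 for PC minus vehicle, and 7 of the members lie left of 0 for AOAH minus PC, of which H2ac25, H2bc27, H2bc4, H2bc21 and H2ac19 were called and H2ac18 and H1f2 were not.

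The comparisons with vehicle share control libraries, so the values of a member are set side by side. The members called higher with AOAH were H1f1, H2ac11, H2ac13, H2ac15, H2ac24, H2bc11, H2bc12, H2bc14, H2bc18, H3c1, H3c3, H3c10, H4c2 and H4c4. Those called lower with PC were H2ac8, H2ac11, H2ac12, H2ac24, H2bc3, H2bc11, H2bc12, H3c3, H3c7, H3c8, H3c10, H4c2 and H4c9. Opposite calls in these comparisons can come from the shared vehicle libraries, so no count of them is given.

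Among the linker histones, H1f0, which accumulates in cells that have stopped dividing, was the most abundant and did not pass the test in any comparison. The libraries held 6.15, 5.92, 6.69 and 5.48 TPM of H1f0 with AOAH, 5.21, 6.07 and 6.76 TPM with PC and 5.51, 5.45, 5.99 and 5.41 TPM with vehicle. The groups overlapped, and the log2 differences were 0.10 ± 0.07 with AOAH and 0.07 ± 0.10 with PC (SE, limma adjusted p = 0.353 and 0.666). H1f2, a main somatic linker histone, came next. H1f2 stood at 2.85, 3.38, 2.21 and 2.32 TPM in AOAH libraries, 2.88, 3.76 and 4.10 TPM in PC libraries and 2.10, 3.23, 2.36 and 2.75 TPM in vehicle libraries. The highest values were in PC libraries, but the groups overlapped, with a log2 difference of 0.37 ± 0.16 with PC (adjusted p = 0.158) and 0.03 ± 0.13 with AOAH (adjusted p = 0.894). H1f1 was the only H1 gene called, at 0.72 ± 0.19 with AOAH over vehicle (adjusted p = 0.0223) and 0.94 ± 0.16 over PC (adjusted p = 0.00232). In AOAH libraries H1f1 was at 2.89, 2.12, 1.84 and 1.49 TPM, in PC libraries at 0.47, 0.72 and 0.59 TPM and in vehicle libraries at 0.39, 0.79, 1.12 and 1.24 TPM. H1f1 averaged under 1 TPM with PC and with vehicle and was tested only because it was higher with AOAH. For AOAH over vehicle the call was lost with the replicate block (adjusted p = 0.0784) and without AOAH library 1, AOAH library 2 or vehicle library 2 (adjusted p = 0.0548, 0.0529 and 0.0557). That call was also lost when no filter was applied. H1f10, a linker histone expressed outside S phase, was under the 1 TPM filter and not tested. The libraries held 0.31, 0.35, 0.49 and 0.24 TPM of H1f10 with AOAH, 0.05, 0.21 and 0.26 TPM with PC and 0.40, 0.52, 0.43 and 0.50 TPM with vehicle.

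In the H2A class, H2ac24 rose with AOAH by 0.38 ± 0.03 on the log2 scale (SE, limma adjusted p = 7.83e-05) and fell with PC, with a log2 difference of -1.48 ± 0.03 (adjusted p = 8.51e-06). The gap between AOAH and PC was 1.85 ± 0.03 (adjusted p = 2.32e-07). Its annotated transcript shares most of its sequence with other H2A genes, and 7.8% of its 100-base windows occur in no other gene, so reads could be divided among copies. H2ac11, the next H2A gene by level, had the same order of groups. H2ac11 stood at 55.6, 65.3, 74.9 and 52.7 TPM in AOAH libraries, 26.8, 16.6 and 25.0 TPM in PC libraries and 54.1, 43.8, 48.1 and 37.1 TPM in vehicle libraries. AOAH and vehicle overlapped, PC lay below both, and the log2 differences were 0.43 ± 0.14 with AOAH (adjusted p = 0.0481) and -1.08 ± 0.18 with PC (adjusted p = 0.00912). The AOAH call of H2ac11 was lost without any 1 of AOAH library 1, 2 or 3 or vehicle library 2, 3 or 4, where the adjusted p was 0.0574 to 0.110.

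H2ac13 was higher with AOAH without overlap. In AOAH libraries H2ac13 was at 35.4, 34.5, 39.5 and 41.2 TPM, in PC libraries at 20.5, 22.9 and 12.0 TPM and in vehicle libraries at 29.6, 25.6, 28.3 and 27.6 TPM. PC values lay below all others too, with more spread, and the log2 differences were 0.43 ± 0.07 with AOAH (limma adjusted p = 0.0021) and -0.61 ± 0.22 with PC (adjusted p = 0.109). In 1 fit over all 11 libraries the AOAH difference of H2ac13 had an adjusted p of 0.0669. H2ac8 differed with PC and not detectably with AOAH. The libraries held 11.01, 11.1, 12.3 and 10.6 TPM of H2ac8 with AOAH, 4.73, 3.35 and 3.72 TPM with PC and 12.4, 8.23, 9.58 and 9.83 TPM with vehicle. Its log2 differences were -1.16 ± 0.16 with PC (adjusted p = 0.00422) and 0.17 ± 0.11 with AOAH (adjusted p = 0.292). H2ac12 was listed at 0 in all 3 PC libraries. H2ac12 stood at 3.57, 4.11, 4.70 and 3.45 TPM in AOAH libraries, 0, 0 and 0 TPM in PC libraries and 1.30, 5.17, 3.00 and 7.34 TPM in vehicle libraries. It was called in the comparisons with PC, but it passed the filter only through AOAH or vehicle and few reads lay behind those values, so no fold or p is given. The low gene H2ac10 was also listed at 0 in all 3 PC libraries, with 0.61 to 2.06 TPM in AOAH and 1.10 to 2.17 TPM in vehicle libraries. H2ac22 was called with AOAH under the replicate block (adjusted p = 0.00897) but not without it (adjusted p = 0.281).

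H2ac19, on chromosome 3, was the one member above 10 TPM that limma called higher with PC. The authors' deposited PC table, a DESeq2 test on counts, gave H2ac19 an adjusted p and a rise, but did not call it. Its rise with PC therefore rests on the TPM values. In AOAH libraries H2ac19 was at 21.2, 24.2, 22.2 and 21.1 TPM, in PC libraries at 35.0, 35.2 and 33.0 TPM and in vehicle libraries at 21.3, 25.5, 22.2 and 26.6 TPM. All PC values lay above all others, while AOAH and vehicle overlapped. The log2 difference was 0.56 ± 0.07 for PC over vehicle (SE, limma adjusted p = 0.00313), -0.10 ± 0.08 for AOAH over vehicle (adjusted p = 0.384) and -0.61 ± 0.06 for AOAH over PC (adjusted p = 8.98e-05). Its stem-loop has the same letters as that of H2ac24, and its promoter window shows 1 CCAAT match on the reverse strand, as printed above. All of its 100-base windows occur in at least 1 other gene, so its level may include reads of copies such as H2ac18. H2ac18, which lies on the same chromosome, ranged from 0 to 3.27 TPM with AOAH, 2.64 to 4.32 TPM with PC and 0.06 to 2.70 TPM with vehicle and was not called.

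H2ac25 was called lower with AOAH and higher with PC, and H2bc27 was called lower with AOAH. The libraries held 1.52, 1.34, 1.35 and 1.37 TPM of H2ac25 with AOAH, 4.18, 4.85 and 4.58 TPM with PC and 2.60, 3.19, 3.00 and 3.33 TPM with vehicle. The 3 groups of H2ac25 did not overlap, with log2 differences of -0.75 ± 0.09 with AOAH (limma adjusted p = 5.33e-04) and 0.50 ± 0.10 with PC (adjusted p = 0.0155). Its PC call was lost without PC library 2, PC library 3 or vehicle library 1 (adjusted p = 0.0569, 0.0556 and 0.0519). H2bc27 stood at 0.61, 1.18, 0.90 and 0.40 TPM in AOAH libraries, 2.56, 3.89 and 2.92 TPM in PC libraries and 1.94, 2.13, 2.70 and 2.51 TPM in vehicle libraries. AOAH values of H2bc27 lay below all others, and vehicle and PC overlapped. H2bc27 averaged under 1 TPM with AOAH, so in both comparisons with AOAH it was tested only because the other group was higher. The log2 differences of H2bc27 were -0.92 ± 0.15 with AOAH (adjusted p = 0.00285), 0.33 ± 0.15 with PC (adjusted p = 0.179) and -1.23 ± 0.18 for AOAH over PC (adjusted p = 0.00102). H2bc4, whose annotated transcript of 1156 bases holds no stem-loop, was close to the filter. It averaged under 1 TPM with AOAH, so for AOAH over PC it was tested only because it was higher with PC. In AOAH libraries H2bc4 was at 0.70, 0.81, 0.82 and 0.63 TPM, in PC libraries at 1.69, 2.15 and 2.12 TPM and in vehicle libraries at 1.17, 1.05, 1.19 and 0.88 TPM. Its PC values lay above the rest, with log2 differences of 0.48 ± 0.12 for PC over vehicle (adjusted p = 0.0326, and 0.0865 with the replicate block) and -0.78 ± 0.11 for AOAH over PC (adjusted p = 9.10e-04). The call of H2bc4 for PC over vehicle was lost without any 1 library other than PC library 1, at an adjusted p of 0.0732 to 0.113.

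H2bc11 and H2bc12, the most abundant H2B genes, rose with AOAH and fell with PC. The libraries held 51.9, 57.1, 53.1 and 52.1 TPM of H2bc11 with AOAH, 28.2, 26.8 and 18.2 TPM with PC and 42.7, 36.5, 41.0 and 43.4 TPM with vehicle. The 3 groups of H2bc11 did not overlap, and its log2 differences were 0.38 ± 0.06 with AOAH (limma adjusted p = 0.00192) and -0.71 ± 0.16 with PC (adjusted p = 0.0237). The PC call of H2bc11 was lost without vehicle library 1 or vehicle library 3 (adjusted p = 0.0808 and 0.0811). H2bc12 stood at 13.8, 11.6, 16.1 and 14.8 TPM in AOAH libraries, 5.87, 4.52 and 3.70 TPM in PC libraries and 7.98, 9.11, 10.8 and 7.50 TPM in vehicle libraries. The groups of H2bc12 were again apart, with log2 differences of 0.62 ± 0.12 with AOAH (adjusted p = 0.00647) and -0.86 ± 0.16 with PC (adjusted p = 0.0125). H2bc3 was called lower with PC (adjusted p = 0.0235), and this call was lost without PC library 2, PC library 3 or vehicle library 1 (adjusted p = 0.0697, 0.0702 and 0.0610). Vehicle library 4 held 1.09 TPM of H2bc3, within the PC range of 0.81 to 1.78 TPM, and including it also removed the call. H2bc14 and H2bc18 were also called higher with AOAH, at 0.81 ± 0.25 and 1.28 ± 0.29 on the log2 scale. The call of H2bc14 was lost with the replicate block (adjusted p = 0.0939) and without any of 6 libraries, all but vehicle libraries 2 and 3 (adjusted p = 0.0600 to 0.104). H2bc18 was at 0 in vehicle libraries 1 to 3 and at 1.11 TPM in vehicle library 4, and it passed the filter only through AOAH, so its difference rests on very low values.

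H3c3 and H3c1 carried most of the H3 signal. In AOAH libraries H3c3 was at 51.3, 52.2, 53.0 and 46.7 TPM, in PC libraries at 19.1, 19.0 and 14.9 TPM and in vehicle libraries at 45.0, 35.8, 40.3 and 37.2 TPM. The 3 groups of H3c3 did not overlap, with log2 differences of 0.36 ± 0.07 with AOAH (SE, limma adjusted p = 0.00701) and -1.15 ± 0.12 with PC (adjusted p = 0.00162). H3c3 lay 1.48 ± 0.09 higher with AOAH than with PC (adjusted p = 1.10e-05). The libraries held 32.1, 29.1, 32.0 and 28.3 TPM of H3c1 with AOAH, 14.3, 18.9 and 17.2 TPM with PC and 25.7, 19.2, 20.9 and 21.4 TPM with vehicle. AOAH values of H3c1 lay above all others and PC values below all others, but only the AOAH difference passed the test, at 0.47 ± 0.08 (adjusted p = 0.00427) against -0.36 ± 0.13 with PC (adjusted p = 0.104). H3c10 was called in both comparisons, at 0.50 ± 0.16 with AOAH and -0.97 ± 0.16 with PC. The AOAH call of H3c10 was lost, at an adjusted p of 0.0698 under the replicate block and of 0.0720 to 0.114 without any 1 library other than AOAH library 3. H3c7 and H3c8 were called lower with PC and not called with AOAH against vehicle. H3c7 had an adjusted p of 0.106 with the replicate block and of 0.0660 to 0.130 without any 1 library other than PC library 3, and H3c8 one of 0.0544 and 0.0548 without PC library 2 or 3. For AOAH over PC, H3c11 was called (adjusted p = 0.0495) but not with the replicate block (adjusted p = 0.140).

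In the H4 class, H4c2 and H4c9 were the most abundant. H4c2 stood at 51.4, 39.2, 46.8 and 34.5 TPM in AOAH libraries, 25.7, 18.6 and 20.1 TPM in PC libraries and 27.9, 33.2, 29.9 and 29.0 TPM in vehicle libraries. AOAH values of H4c2 lay above all others and PC values below, with log2 differences of 0.49 ± 0.12 with AOAH (limma adjusted p = 0.0143) and -0.49 ± 0.12 with PC (adjusted p = 0.0343). The PC call of H4c2 was lost with the replicate block (adjusted p = 0.0856) and without any 1 library other than PC library 1 (0.0616 to 0.104). In AOAH libraries H4c9 was at 33.6, 33.8, 35.8 and 33.3 TPM, in PC libraries at 16.7, 17.0 and 19.8 TPM and in vehicle libraries at 31.8, 28.9, 34.6 and 32.0 TPM. PC values of H4c9 were the lowest, AOAH and vehicle overlapped, and the log2 differences were -0.80 ± 0.09 with PC (adjusted p = 0.00205) and 0.10 ± 0.06 with AOAH (adjusted p = 0.227). H4c4 was called higher with AOAH at 0.55 ± 0.11 (adjusted p = 0.00819) and had -0.18 ± 0.17 with PC (adjusted p = 0.519). H4c12 spread from 0 to 13.6 TPM within the vehicle group and was not called against vehicle in either treatment. H4c6 was called for AOAH over PC with the replicate block (adjusted p = 0.00800) but not without it (adjusted p = 0.0586).

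Few reads lie behind most of these values, as TPM divides by length and a short transcript reaches a given TPM with few reads. In the authors' deposited DESeq2 tables, the base mean (normalized counts averaged over the libraries compared) had a median of 11.3 over the 61 members matched for AOAH against vehicle and of 8.39 over the 62 matched for PC against vehicle. It was under 10 for 27 and 34 members and at least 100 for 6 members in each table. H2ac24 had 6548 normalized counts in the AOAH table and 4057 in the PC table, H3c3 had 248.9 and 166, H4c9 had 244 and 190 by the same tables, and H2ac12 had 7.12 and 2.89. H1f0, at a mean of 5.83 TPM in both comparisons, had 201 and 207, and its annotated transcript is 2055 bases long, against 405 bases for H2ac12. The spread between vehicle libraries followed the reads: the median coefficient of variation of the TPM over tested members was 68.8% where the AOAH table's base mean was under 10, 18.9% from 10 to under 100 and 7.5% at 100 or more.

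The authors' deposited tables made fewer calls among the members than limma did on TPM. For AOAH they gave an adjusted p to 31 members and called H2ac24 alone, with a log2 fold change of 0.38 and an adjusted p of 4.55e-14. For PC they gave an adjusted p to 15 members and called 5, all lower, which were H2ac24, H2ac11, H2ac8, H3c3 and H4c9. The share of all genes called in those tables was not counted, so these counts do not show whether the members stand out there. All 14 members called by limma and matched in the authors' deposited AOAH table, and all 15 in the PC table, had the same sign there. Of the 14 members called higher with AOAH, 13 were thus called on TPM alone, and likewise 10 of the 15 with PC. Of those 13, H2ac15 and H2bc18 had no adjusted p in the deposited AOAH table, and the others had one and were not called. Of those 10, H2ac19, H2bc11 and H4c2 had an adjusted p in the deposited PC table and were not called. The others of the 10 had no adjusted p there, so the deposited table does not decide their calls.

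**Figure D4:**
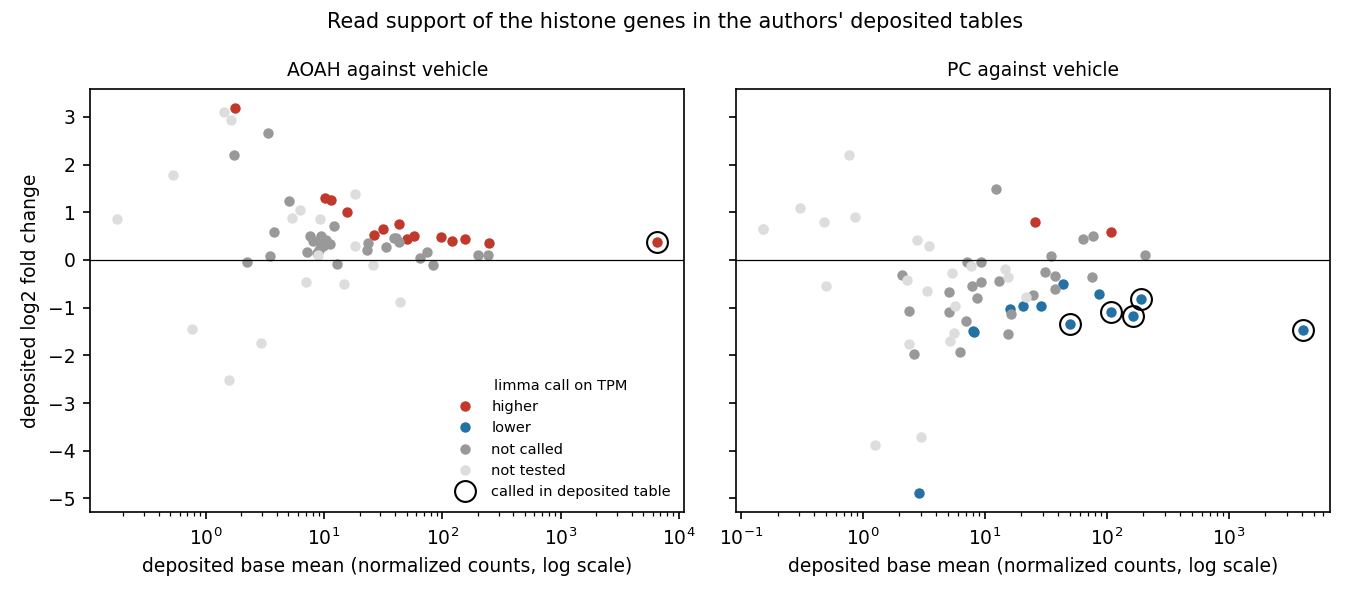
The authors' deposited log2 fold change against the deposited base mean (normalized counts, log scale) for the matched histone genes, with AOAH against vehicle left (n = 61) and PC against vehicle right (n = 62). Colours give the limma call on TPM and black rings the calls of the deposited tables. Ringed genes lie at the right, with H2ac24 far above all other members in read support.

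Members were also compared by the features of their sequence, with counts and medians only. Among all genes tested, 13.1% were called higher with AOAH and 11.2% lower with PC. Members that passed the filter through 1 group alone are included, among them H1f1 and H2bc18 with AOAH and H2ac12 with PC. Each of these has no annotated stem-loop, and H2bc18 and H2ac12 carry the octamer. Transcripts that end near the stem-loop gave 8 of 19 called higher with AOAH and 8 of 18 called lower with PC, with median log2 differences of 0.33 and -0.70. Transcripts that run past it gave 1 of 10 called higher with AOAH and 3 of 10 called lower with PC, with medians of 0.17 and -0.24. Transcripts with no annotated stem-loop gave 5 of 15 called higher with AOAH and 2 of 12 called lower with PC, with medians of 0.50 and -0.56. Members with the octamer in the promoter had medians of 0.27 with AOAH and -0.93 with PC, and those without it 0.32 and -0.56. Members with under 50% of their 100-base windows free of other genes had medians of 0.38 with AOAH and -0.77 with PC. Those with at least 50% had 0.27 and -0.43. Reads of copies that share sequence could be divided among them, so their calls need not be separate. The groups of members differ in class and level as well, and no test was made between them.

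Genes that act on histones, where called, mostly moved in the main direction of the core histones, apart from those of mRNA decay. Over all genes tested, 13.1% were called higher and 12.1% lower with AOAH, and 8.26% higher and 11.2% lower with PC. Slbp, which binds the stem-loop, stood at 160.0 ± 4.13 TPM with AOAH, 105 ± 5.72 with PC and 135 ± 4.44 with vehicle (SD), and was called higher with AOAH and lower with PC (log2 differences 0.24 ± 0.03 and -0.37 ± 0.05, limma adjusted p = 8.34e-04 and 0.00352). Of the 20 tested genes of 3′ end processing, 10 were called higher and none lower with AOAH. With PC, 4 of them were called lower, none higher, and 16 were not called. Eri1, a 3′ exonuclease that acts on the histone stem-loop, stood at 41.4 ± 1.62 TPM with AOAH, 30.0 ± 1.45 with PC and 37.6 ± 1.51 with vehicle. Of 16 genes of histone locus transcription and its cell cycle drive, 9 were called higher with AOAH and 9 lower with PC, none the other way. Among them were Ccna2, cyclin A2, at 0.45 ± 0.07 with AOAH and -1.27 ± 0.10 with PC, and Ccne1, cyclin E1, at 0.31 ± 0.04 and -0.56 ± 0.05. Npat itself was called for AOAH over PC only. Among 12 genes of histone mRNA decay, 1 was called higher and 3 lower with AOAH, and 1 higher and none lower with PC. The decay factor Pnrc2 moved the other way from Slbp, at 33.4 ± 1.61 TPM with AOAH, 46.0 ± 0.923 with PC and 41.4 ± 0.197 with vehicle.

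Of 28 histone chaperones, 16 were called higher and none lower with AOAH, and 18 were called lower and none higher with PC, with median log2 differences of 0.18 and -0.21. Nasp, which holds soluble H3 and H4, stood at 204 ± 7.39 TPM with AOAH, 143 ± 4.37 with PC and 176 ± 3.49 with vehicle, and Supt16, a subunit of the FACT complex, at 142 ± 1.05 TPM with AOAH, 94.6 ± 1.38 with PC and 119 ± 6.94 with vehicle. The S phase list had 51 of 55 tested genes called higher with AOAH and 54 called lower with PC, with medians of 0.24 and -0.41. Rrm2, a subunit of ribonucleotide reductase, stood at 248 ± 5.82 TPM with AOAH, 92.8 ± 7.47 with PC and 183 ± 15.3 with vehicle. The mitosis list had 29 of 42 called higher with AOAH and 40 called lower with PC, with medians of 0.34 and -1.05, and the topoisomerase gene Top2a averaged 191 ± 5.87 TPM with AOAH, 64.2 ± 3.07 with PC and 145 ± 12.9 with vehicle. Over all genes tested, 13.1% were called higher with AOAH and 11.2% lower with PC. These lists were chosen with results of these data known, so their direction is no independent support.

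**Figure D5:**
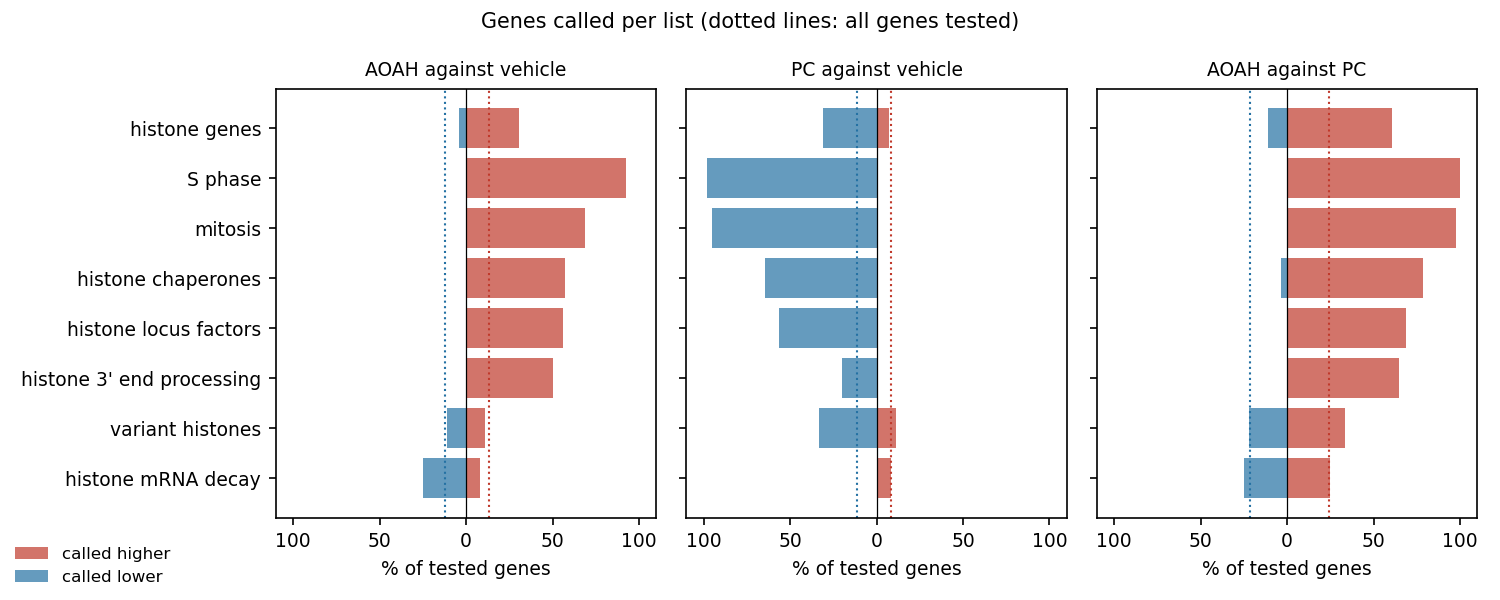
Share of the tested genes of each list that limma called higher (red, to the right) or lower (blue, to the left) in each comparison, with dotted lines for all genes tested. Histone genes are called in the same main direction as the S phase, mitosis and chaperone lists, at a smaller share.

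Histone variants, several of them made outside S phase, were set beside the members. H3f3a, which encodes H3.3, and Macroh2a1 were not called in any comparison: H3f3a stood at 642 ± 22.7 TPM with AOAH, 657 ± 16.3 with PC and 656 ± 5.74 with vehicle, and Macroh2a1 at 265 ± 12.8 TPM with AOAH, 263 ± 4.41 with PC and 263 ± 6 with vehicle. H3f3b was called higher with PC at 0.10 ± 0.02 (limma adjusted p = 0.0214) and H3f3a was not called (adjusted p = 0.965). H2az1, the H2A.Z gene, moved as the core histones did, at 904 ± 18.9 TPM with AOAH, 620.5 ± 18.3 with PC and 824 ± 29.1 with vehicle, with log2 differences of 0.13 ± 0.03 with AOAH and -0.42 ± 0.04 with PC (adjusted p = 0.00807 and 0.00101). H2az2 was called lower with AOAH at -0.36 ± 0.08 (adjusted p = 0.0131). H2ax, which marks DNA breaks once phosphorylated, and Cenpa, the centromeric H3, were called lower with PC at -0.20 ± 0.05 and -0.56 ± 0.08 (adjusted p = 0.0299 and 0.00504) and were not called with AOAH (adjusted p = 0.0721 and 0.511). Of the 9 variant histones tested, 1 was called higher and 1 lower with AOAH, and 1 higher and 3 lower with PC. Over all genes, 13.1% were called higher and 12.1% lower with AOAH, and 8.26% higher and 11.2% lower with PC. With 9 genes, no more is read from these counts.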

How the data were processed

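RNA was measured in 11 libraries, with groups and batch numbers taken from the labels. The authors quantified transcripts with RSEM against mm39, per the submitters' processing notes, and deposited log2 values of TPM plus 1. Which aligner, annotation and software versions were used is not given in the sources used here. TPM was recovered from the deposited log2 values, which summed to 998406 to 998655 TPM per library, and 99.9% were whole multiples of 0.01 TPM within 1e-04. Depth per library is unknown, and correlations within a group were 0.983 to 0.988. The authors' deposited DESeq2 tables gave the base mean (a signal in normalized counts), the log2 fold change and the adjusted p-value used here.

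Differences were tested with limma 3.58.1 in R 4.3.3 on log2(TPM + 1), with a mean-variance trend and robust estimation, two-sided, for genes averaging at least 1 TPM over the libraries compared, at a Benjamini-Hochberg adjusted p under 0.05 over all genes tested. Fold changes on this scale understate the change of low genes. Values in every library are given for the 2 most abundant members of each class, for up to 4 called members of lowest adjusted p per direction and comparison, and for H1f0 and H1f10; up to 4 genes of lowest adjusted p of each other list could be named, as could the main variant histones. Other members are named for their calls, and H1f1 is given in full because it was the only H1 gene called. The members and lists were chosen with earlier results of these data known. Stem-loops and windows were sought in GENCODE M21 transcripts, which are of another build than the tables, so no transcript coordinates are given. The promoter intervals printed above are on GRCm38.p6, not on mm39.

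Replicate numbers are batch numbers in the labels, and the pairing was taken from there. Deviations from the group mean correlated at -0.0585 on average between same-numbered AOAH and vehicle libraries, 0.0322 between PC and vehicle and 0.0357 between AOAH and PC, against 0.0195, -0.0162 and -0.0118 between different numbers. The alternatives tried were a pseudocount of 0.1 or 5, testing without a filter or from a mean of 5 TPM, TMM and quantile rescaling, rescaling without the histone genes, 1 fit over all libraries, batch as a replicate block, vehicle 4 included for PC, and each library left out in turn. One marker gene of the B cell list is not reported here.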

Additional observations from a re-analysis of the deposited data

Results flagged for a closer look

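Of 52 groups of 4 libraries checked, 2 held a library whose gap to the nearest of the others exceeded Dixon's 95% critical share of the group's range, which chance gives in about 1 of 20 groups. H2ac25 with AOAH stood at 1.52 TPM in library 1 and between 1.34 and 1.37 TPM in the other libraries, a gap of 0.833 of the range. All 4 values lay below all vehicle values of H2ac25. The summed TPM of the H1 genes with AOAH was 12.3 in library 4 and 14.6 to 15.0 in the other libraries, a gap of 0.846 of the range. The lowest H1 member values of that library within the group included H1f0 at 5.48 TPM, H1f1 at 1.49 TPM and H1f4 at 1.02 TPM.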

How the results depend on the processing

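No member changed sign with a call under any alternative, and rescaling moved the median of all genes by under 0.1 on the log2 scale. A filter of 5 TPM tested 19, 16 and 17 members for AOAH against vehicle, PC against vehicle and AOAH against PC. It then left 0 members lower with AOAH, 1 higher with PC, and 15 higher and 1 lower for AOAH over PC. Leaving out 1 library gave 9 to 15 members higher with AOAH, 1 to 3 higher and 9 to 13 lower with PC, and 26 to 30 higher and 4 to 5 lower for AOAH over PC. With the replicate block, 12 members were higher and 2 lower with AOAH, 2 higher and 11 lower with PC, and 28 higher and 5 lower for AOAH over PC. The share of all genes called under each alternative is not given here. These counts therefore do not show whether members lost calls more often than other genes. Beyond the calls named above, the block changed no other call. Of the called members, 11 of 16 with AOAH, 9 of 16 with PC and 29 of 33 for AOAH over PC kept their call under every alternative in which they were tested. Without a filter, calls were lost for H1f1, H2ac11, H2bc14 and H3c10 with AOAH and for H2bc15 and H3c11 for AOAH over PC. The PC calls of H2bc3, H2bc4, H2bc11, H3c7 and H4c2 were lost there too. TMM or quantile rescaling each removed the AOAH call of H3c10. Including vehicle 4 removed the PC calls of H2bc3 and H3c7. The single fit removed the calls of H2ac11, H2ac13 and H3c10 with AOAH, H2bc3 with PC, and H3c11 and H4c12 for AOAH over PC. A pseudocount of 0.1 removed those of H2bc14 with AOAH and H4c12 for AOAH over PC. One of 5 removed that of H2bc15 for AOAH over PC. Some alternatives also added calls. Sums over classes moved by less than the spread between libraries under both rescalings tried. Depth limits the low members most: few reads, shared sequence between copies and poly(A) selection bear on each value above, and none of these could be measured per library.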
